A study of Mus musculus with 4 samples.

Results

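The 10 transcription factors described here specify or maintain group 2 innate lymphoid cells (ILC2s), and their transcripts were followed in cultured lung ILC2s. They are Gata3, Rora, Id2, Gfi1, Bcl11b, Ets1, Tcf7, Tox, Nfil3 and Zbtb16, chosen by name, and all 10 have a value among the 17187 genes deposited. ILC2s are lymphocytes of barrier tissues that release type 2 cytokines without an antigen receptor. The cells had been sorted from the lungs of BALB/c mice and kept in culture for 18 hours. One group of 2 libraries received an antibody against CD226, a costimulatory receptor, at 5 µg/mL, and the other group of 2 libraries received an isotype control antibody, for which the wording of the dose is open. Other descriptions differ: the series' design text has the mice treated, and the table's own treatment column has PBS for the controls. The sample labels were followed. Nothing states that a group's libraries are from different animals or cultures, and the p-values then reflect only variation among these libraries, possibly technical.

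The factors form a network that is built up in steps. Nfil3, Tox and Tcf7 act early, when lymphoid progenitors of the mouse commit to the innate lymphoid lineage, and Zbtb16 marks a precursor stage and is low in mature cells. Id2 holds the lineage open by binding E proteins, activators of T and B cell genes, while Gata3 and Rora direct the type 2 branch and Bcl11b, Gfi1 and Ets1 sustain its identity and fitness.

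Values are normalised read counts, the authors' estimate of reads per gene divided by 1 factor per library. The estimated depth was 12433555 to 17847072 reads per library. All 4 libraries carried ILC2 transcripts. The 10 marker genes measured of 11 listed made up 1.21% and 1.17% of the signal in anti-CD226 libraries and 1.30% and 1.31% in isotype libraries. The list has Il1rl1, Icos, Il5 and Il13, and also Gata3, itself 1 of the 10 factors. The markers summed to 168850.6 and 161443.5 in anti-CD226 libraries and to 179007.3 and 180565.9 in isotype libraries. Of these sums, Il5 alone gave 85431 and 67864 and, in isotype libraries, 95010 and 97655. A mean value of at least 10 was required for testing, which left 13010 genes, and the test was limma on log2(value + 1). In the text a fold change is anti-CD226 over isotype on that scale, with its standard error. No gene passed an adjusted p of 0.05, and 308 genes, 2.37% of those tested, had an unadjusted p below 0.05.

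The 10 factors ranged from the 8.22 percentile to the 99.8 percentile of transcript levels, and their order differed between libraries only for Rora and Bcl11b. Levels of different genes were compared as normalised reads per kilobase of exon, since a long transcript yields more reads. Id2 stood first, with 9132 and 6764 reads per kilobase in anti-CD226 libraries and 8281 and 9067 in isotype libraries. Only 0.245% of the 16762 genes with a known exon length were higher on that scale. Gata3 came next with 3748 and 4351 against 3569 and 3472, and then Ets1 with 1047 and 1425 against 1214 and 947. The ranges of Id2, Gata3 and Ets1 over the 4 libraries did not overlap each other. Nfil3 followed at 526.5 reads per kilobase on average, above Rora at 300.6 and Bcl11b at 293.8. Rora and Bcl11b were the only neighbours in the order whose ranges overlapped. Gfi1 averaged 147.6 and Tox 75.4 reads per kilobase.

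**Figure D1:**
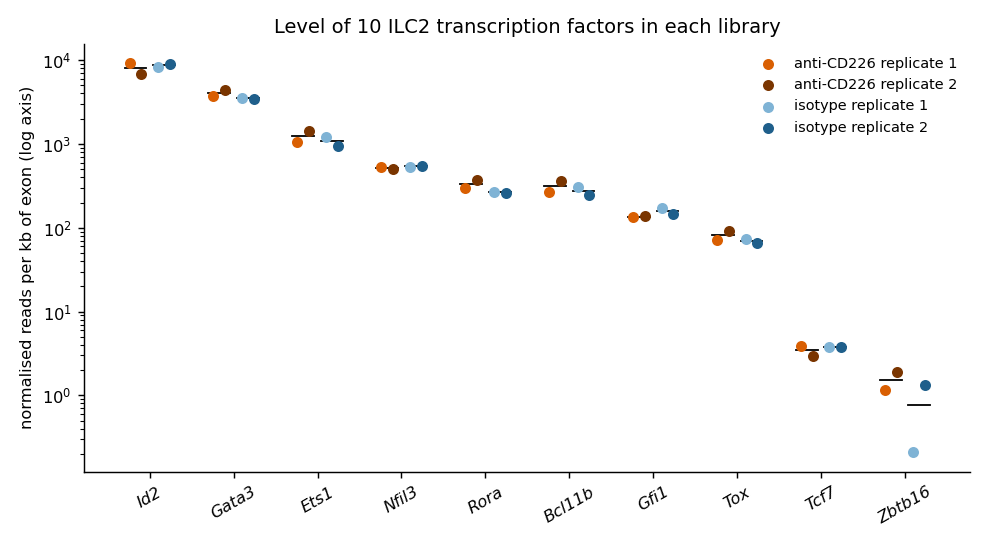
Normalised reads per kilobase of exon (log axis) of the 10 factors in each of the 4 libraries, with anti-CD226 libraries left of isotype libraries; points are libraries and black lines are group means. Id2 and Gata3 lead, and Tcf7 and Zbtb16 lie far below the other 8, at 3.62 and 1.14 reads per kilobase on average.

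A wide step separated these 8 factors from Tcf7 and Zbtb16. Tcf7, which encodes TCF-1, an early factor of innate lymphoid commitment, had 10.3 and 7.72 normalised reads in anti-CD226 libraries and 9.95 and 10.04 in isotype libraries. These values rest on about 10 and 7 reads and on about 9 and 13 reads. Zbtb16, which encodes the precursor factor PLZF, had 6.18 and 9.92 in anti-CD226 libraries and 1.11 and 6.95 in isotype libraries, and the lowest of these is a single read, below the floor of 3 reads. Per kilobase Tox stood 20.8-fold above Tcf7. Both genes overlapped between the groups and stayed below the mean of 10 needed for the test, so no fold change is given for them. Of the 10 factors, 8 were tested.

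The sequence upstream of 3 factors is printed because Id2 is the most abundant of the 10, and Gata3 and Rora are those whose anti-CD226 libraries both lay above both isotype libraries. Each is the stretch of 250 bases before the RefSeq start (GRCm38.p6), read 5′ to 3′ on the gene's strand. Id2 is at chr12:25096093-25096342 on the minus strand, Gata3 at chr2:9878601-9878850 on the minus strand and Rora at chr9:68653536-68653785 on the plus strand. GENCODE M21 also annotates a longer Id2 transcript with an exon across part of that stretch, and an exon of the antisense gene Gm13256 across that of Gata3. It has the Gata3 gene at chr2:9857078-9890034, so the Gata3 stretch lies inside the annotated gene and not upstream of its furthest start. Capitals mark the motif CCAAT or its reverse complement ATTGG.
Id2: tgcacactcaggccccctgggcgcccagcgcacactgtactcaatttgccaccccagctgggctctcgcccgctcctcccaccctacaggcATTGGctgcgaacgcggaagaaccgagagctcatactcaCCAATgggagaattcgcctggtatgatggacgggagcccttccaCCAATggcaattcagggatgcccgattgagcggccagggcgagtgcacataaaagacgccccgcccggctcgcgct
Gata3: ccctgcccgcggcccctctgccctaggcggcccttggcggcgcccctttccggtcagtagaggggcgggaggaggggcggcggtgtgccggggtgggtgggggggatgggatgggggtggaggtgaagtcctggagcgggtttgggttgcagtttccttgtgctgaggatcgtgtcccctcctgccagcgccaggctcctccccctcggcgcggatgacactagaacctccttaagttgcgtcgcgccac
Rora: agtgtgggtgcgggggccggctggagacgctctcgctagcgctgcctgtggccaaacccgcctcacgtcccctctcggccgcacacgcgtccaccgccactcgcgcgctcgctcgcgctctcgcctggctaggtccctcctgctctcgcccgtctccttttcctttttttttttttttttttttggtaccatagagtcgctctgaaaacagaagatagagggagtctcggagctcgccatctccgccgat
The Id2 stretch holds 3 such motifs, and the other printed stretches hold 0. Of 32851 promoter windows of the same length, 33.9% held at least 1 and 2.79% held 3 or more. A promoter was found for 7 of the 10 factors. The E-box CANNTG, the letters that E proteins bind, occurred in 66.2% of all windows, in the Id2 stretch 1 time and in those of Gata3 and Rora 0 times. A match of letters is a description and not a binding site.

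None of the 8 factors tested passed limma's adjusted p of 0.05 (0 of 8, against 0% of all genes tested), and none had an unadjusted p below 0.05. Gata3, Rora, Ets1, Bcl11b and Tox had higher means in anti-CD226 libraries, and Id2, Gfi1 and Nfil3 had lower means. The median log2 fold change of the 8 was 0.18, beside 0.01 over all genes tested. It was 0.01 without anti-CD226 replicate 2 and 0.01 without isotype replicate 2, and 0.34 and 0.26 without the other library of each group. In 4 of the 8 the groups did not overlap, 2 with both anti-CD226 libraries above and 2 with both below; over all genes tested the groups did not overlap in 26.8%. In bulk RNA a change in the share of cells that carry a transcript cannot be told apart from a change in the amount per cell.

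Gata3 and Rora, the factors of the type 2 branch, were both higher on average after anti-CD226. Gata3, a zinc finger protein that ILC2s need at every stage and that acts on the Il5 and Il13 genes, had 14911 and 17310 normalised reads in anti-CD226 libraries and 14198 and 13811 in isotype libraries. The groups did not overlap, and anti-CD226 replicate 2 was the highest. The log2 fold change was 0.20 ± 0.16, a 1.15-fold difference with a 95% interval of 0.884 to 1.49 (limma, adjusted p = 0.98). Rora, a nuclear receptor without which mice lack ILC2s, had 3928 and 4865 in anti-CD226 libraries and 3536 and 3386 in isotype libraries. Its log2 fold change was the largest in size among the 8, 0.34 ± 0.17, or 1.26-fold with an interval of 0.957 to 1.67 (limma, adjusted p = 0.98). By unadjusted p, 0.088, Rora ranked 619 of the 13010 genes. Without anti-CD226 replicate 1, where the single library left is taken to be as variable as the isotype pair, Rora passed, with 0.49 on the log2 scale (limma, adjusted p = 0.046). That fit called 1633 genes. Without anti-CD226 replicate 2 its log2 fold change was 0.18 and did not pass.

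Id2, the most abundant factor, had both its highest and its lowest value in the anti-CD226 group. It encodes a helix-loop-helix protein without a DNA-binding region, which pairs with E proteins and keeps them off DNA. It had 22265 and 16490 normalised reads in anti-CD226 libraries and 20190 and 22106 in isotype libraries. Anti-CD226 replicate 1 was the highest library and replicate 2 the lowest, so the groups overlapped. The log2 fold change was -0.14 ± 0.19 (limma, adjusted p = 0.98), and 0.08 without anti-CD226 replicate 2.

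The 3 E protein genes were tested and none passed. Tcf3, which encodes E2A, had 1637 and 2003 in anti-CD226 libraries and 1749 and 1558 in isotype libraries, with a log2 fold change of 0.13 ± 0.18. Tcf12, which encodes HEB, had 608 and 719 against 673 and 597, and Tcf4, which encodes E2-2, had 66.9 and 65.0 against 64.1 and 64.1. Summed per kilobase, the 3 genes stood well below Id2 in every library. The ratio of Id2 to that sum was 20.4 and 12.4 in anti-CD226 libraries and 17.3 and 21.3 in isotype libraries. Anti-CD226 replicate 2 gave the lowest ratio, and the groups overlapped. With the longest annotated transcript as the length, the ratio of the means was 14.7 in place of 17.5.

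The early factors Nfil3 and Tox gave opposite signs. Nfil3, a basic leucine zipper factor needed by innate lymphoid progenitors, had 1071 and 1006 normalised reads in anti-CD226 libraries and 1090 and 1100 in isotype libraries. Both anti-CD226 libraries lay below both isotype libraries, at a log2 fold change of -0.08 ± 0.16 (limma, adjusted p = 0.98). Tox, a factor with a high mobility group box, had 545 and 697 in anti-CD226 libraries and 554 and 501 in isotype libraries. Its groups overlapped, with anti-CD226 replicate 2 alone above the rest, at a log2 fold change of 0.22 ± 0.20 (limma, adjusted p = 0.98).

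Of the factors that sustain ILC2 identity, Gfi1 was lower on average and Bcl11b and Ets1 higher. Gfi1, a zinc finger repressor that in mouse ILC2s holds back genes of other innate lymphoid types, had 429 and 436 normalised reads in anti-CD226 libraries and 549 and 467 in isotype libraries. The anti-CD226 libraries lay close together below both isotype libraries, at a log2 fold change of -0.23 ± 0.18, or 0.855-fold with a 95% interval of 0.637 to 1.15 (limma, adjusted p = 0.98). Bcl11b, which acts upstream of Gfi1 in mouse ILC2s, had 2155 and 2902 in anti-CD226 libraries and 2485 and 1990 in isotype libraries. Ets1, a factor for the fitness of ILC2s, had 8874 and 12075 in anti-CD226 libraries and 10286 and 8029 in isotype libraries. In both genes the order was anti-CD226 replicate 2, isotype replicate 1, anti-CD226 replicate 1 and isotype replicate 2, from high to low. Their log2 fold changes were 0.17 ± 0.21 and 0.19 ± 0.21 (limma, adjusted p = 0.98 for each), and without anti-CD226 replicate 2 they were -0.05 and -0.03.

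**Figure D2:**
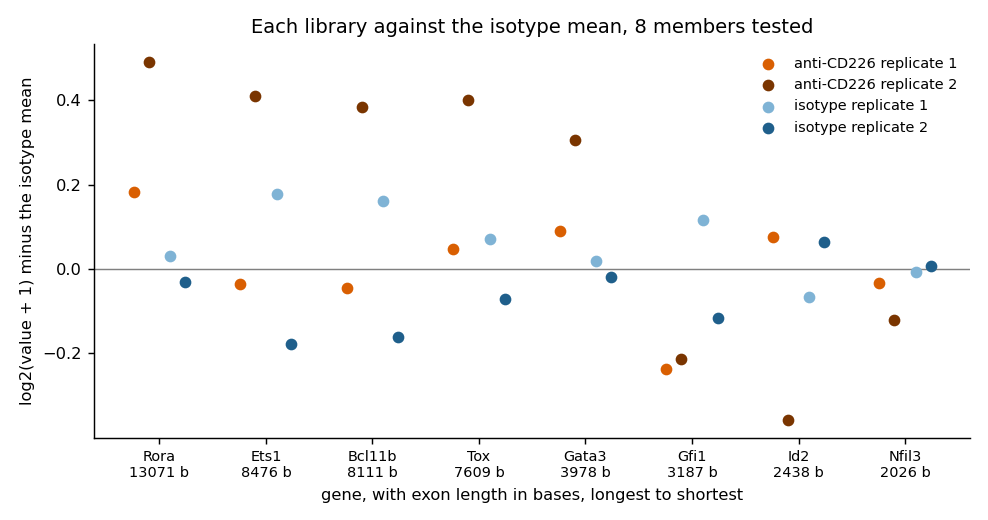
log2(value + 1) of each library minus the isotype mean for the 8 factors tested, ordered by exon length from 13071 to 2026 bases; points are libraries, with anti-CD226 left of isotype. Anti-CD226 replicate 2 lies highest for the 5 longest genes and below the isotype mean for the 3 shortest, while anti-CD226 replicate 1 is nearer to 0 for all but Gfi1.

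The direction of the 8 factors followed exon length. The 5 with the longest exons, Rora, Ets1, Bcl11b, Tox and Gata3 (13071, 8476, 8111, 7609 and 3978 bases), were those with higher means. The 3 with the shortest, Gfi1, Id2 and Nfil3 (3187, 2438 and 2026 bases), were those with lower means. Over all genes tested with a known length, split into 5 groups of nearly equal size by exon length, the median log2 fold change was -0.17 in the group of shortest exons (66 to 1960 bases) and 0.15 in that of longest exons (7181 bases and over). Of the genes in the longest group, 75.4% had a higher mean in anti-CD226 libraries, against 28.4% in the shortest. The trend differed from library to library. Across 12737 genes, the deviation of a library from the mean of all 4 had a Spearman's rho with exon length of -0.324 and 0.476 for anti-CD226 replicates 1 and 2 and of -0.017 and -0.433 for isotype replicates 1 and 2. The libraries of both groups thus differed among themselves, and long genes stood relatively high in anti-CD226 replicate 2 and relatively low in anti-CD226 replicate 1 and isotype replicate 2. Set against the isotype mean, the shortest group had a median of -0.36 in anti-CD226 replicate 2, where the other library of its group had 0.06. Against the same mean the 8 factors had a median of 0.34 in anti-CD226 replicate 2, with 5 above and 3 below, and of 0.01 in anti-CD226 replicate 1, with 4 above and 4 below.

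With each library's trend with length removed, the fold changes of the 4 longest factors moved most. How far a factor moves is set by its exon length. Gata3 and Gfi1 fall in length groups whose median over all genes was 0.01 and -0.06. Their small moves therefore do not mark them out from the other factors. Gata3 had a log2 fold change of 0.19 ± 0.14 after removal, beside 0.20 as deposited, and Gfi1 had -0.20 ± 0.17 beside -0.23. Rora had 0.15 ± 0.13 beside 0.34, Tox 0.12 ± 0.15 beside 0.22, Ets1 0.07 ± 0.15 beside 0.19 and Bcl11b 0.06 ± 0.15 beside 0.17. Id2 had -0.09 ± 0.15 beside -0.14, and Nfil3 stood at -0.0021 ± 0.14. All 8 signs were as before, the median of the 8 was 0.06 in place of 0.18, and none passed (limma, smallest adjusted p = 0.99).

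**Figure D3:**
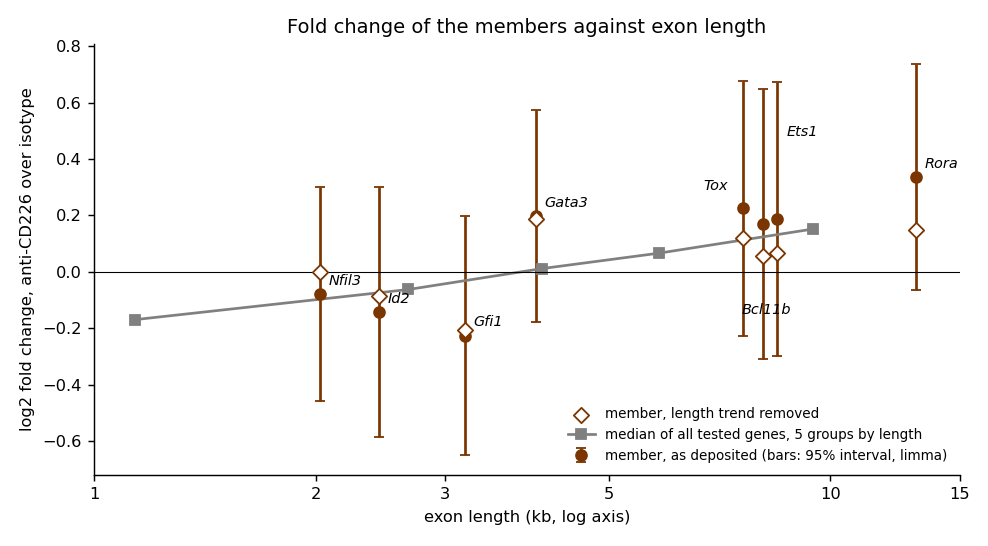
log2 fold change of anti-CD226 over isotype against exon length in kilobases (log axis) for the 8 factors tested: filled circles are deposited values with 95% intervals from limma, open diamonds are values with the length trend removed, and grey squares are the medians of all tested genes in 5 groups by length. The grey medians are higher for longer genes, and the 4 longest factors lie nearer to 0 with the trend removed. Gata3 and Gfi1, at lengths where the grey medians are small, keep nearly the same value.

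Several factors were outnumbered by a relative of the same family. Tox2 stood at 3344 and 4863 normalised reads in anti-CD226 libraries and at 3136 and 2880 in isotype libraries. Per kilobase it was 13.7-fold and 15.6-fold above Tox in anti-CD226 libraries and 12.7-fold and 12.9-fold above it in isotype libraries. Lef1, the partner of Tcf7 in the TCF and LEF family, had 381 and 545 against 308 and 329, which per kilobase was 11.1-fold and 21.1-fold above Tcf7 in anti-CD226 libraries and 9.24-fold and 9.80-fold in isotype libraries. Hlf, of the PAR family of leucine zipper factors that shares DNA sites with Nfil3, had 4751 and 4656 against 4114 and 4004 and was per kilobase 1.35-fold and 1.40-fold above Nfil3 in anti-CD226 libraries and 1.14-fold and 1.10-fold in isotype libraries. With the longest annotated transcript as the length, the means of Tox2, Lef1 and Hlf stood 8.33-fold, 27.8-fold and 1.47-fold above their relatives. Id2 and Gata3 stood far above relatives of theirs: per kilobase the mean of Id2 was 70.3-fold that of Id3, and the mean of Gata3 was 1227-fold that of Gata2. Ets1 was 1.75-fold above Fli1. Hlf, Fli1 and Id3 were chosen after their values were seen.

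**Figure D4:**
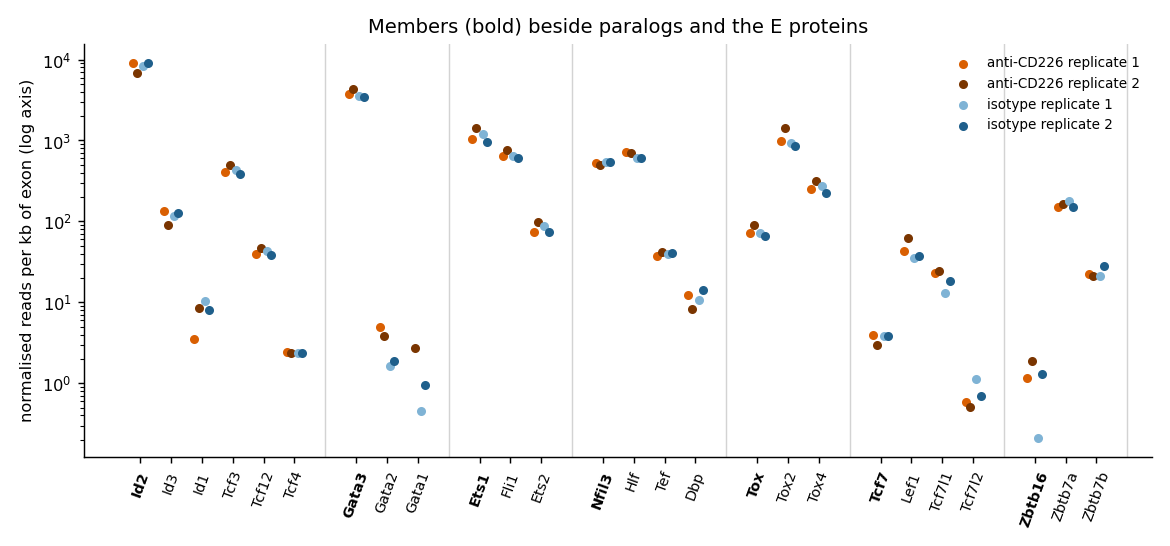
Normalised reads per kilobase of exon (log axis) in each library for factors (bold) beside genes of the same family and, next to Id2, the E protein genes Tcf3, Tcf12 and Tcf4; anti-CD226 libraries are left of isotype libraries, and values of 0 are not drawn. Id2 and Gata3 stand far above their relatives, while Tox, Nfil3 and Tcf7 stand below Tox2, Hlf and Lef1.

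Of 25 genes listed from the families of the 10 factors, 14 were tested, 9 with higher and 5 with lower means, and 0 passed limma's adjusted p (median log2 fold change 0.12). The smallest unadjusted p belonged to Gata2, a relative of Gata3 that mast cells and basophils use. It had 26.8 and 20.9 normalised reads in anti-CD226 libraries and 8.84 and 10.04 in isotype libraries, a log2 fold change of 1.24 ± 0.50. Lef1 had 0.52 ± 0.22, Tcf7l1 0.62 ± 0.28 and Tox2 0.42 ± 0.21, each with both anti-CD226 libraries above both isotype libraries (limma, adjusted p = 0.98 for each of the 4). The 4 were named for their low p, which favours groups that do not overlap. Of the 14 tested, 5 had both anti-CD226 libraries above and 0 both below, against 13.8% and 13% of all genes tested.

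Other regulators known from ILC2s or type 2 lymphocytes also had mostly higher means in anti-CD226 libraries. All 30 listed were tested, 24 with higher and 6 with lower means, with a median log2 fold change of 0.20, beside 51.1% with higher means among all genes tested. None passed limma's adjusted p. Those of smallest unadjusted p were Zeb2, a zinc finger repressor, at 0.54 ± 0.23, Ikzf2, which encodes Helios, at 0.67 ± 0.30, Arid5b at 0.40 ± 0.20 and the receptor Notch2 at 0.43 ± 0.26. Ikzf2 had 461 and 909 in anti-CD226 libraries and 383 and 430 in isotype libraries, so anti-CD226 replicate 2 again stood apart. With the length trend removed the median of the 30 was 0.09, with 23 higher. Without anti-CD226 replicate 2 it was 0.04, with 19 higher.

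Genes that depend on the 10 factors went both ways. Of 19 tested among 20 ILC2 genes reported to need at least 1 of them, 8 had higher and 11 lower means; their median log2 fold change was -0.05, and none passed limma's adjusted p. Il13 had 2725 and 921 normalised reads in anti-CD226 libraries and 2773 and 3419 in isotype libraries, and Il5 had 85431 and 67864 against 95010 and 97655. The receptor Il18r1 had 87.5 and 86.0 against 108 and 126, and Thy1, a surface protein of lymphocytes, 141 and 76.0 against 127 and 194. Il13, Il5 and Il18r1 had both anti-CD226 libraries below both isotype libraries and Thy1 overlapped (limma, adjusted p = 0.98 for each). They were named for their low p, which favours groups that do not overlap. Of the 19 tested, 5 had both anti-CD226 libraries below and 3 both above, against 13% and 13.8% of all genes tested. The means of Gata3 and Rora were higher in the same libraries in which those of Il5 and Il13 were lower. These genes differ in exon length. Il5 and Il13 (1537 and 1205 bases) fall in the group of shortest exons, where 28.4% of all genes had a higher mean. Gata3 (3978 bases) falls in a group with 52.5% and Rora (13071 bases) in one with 75.4%. The part of length in the opposite directions was not tested.

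**Figure D5:**
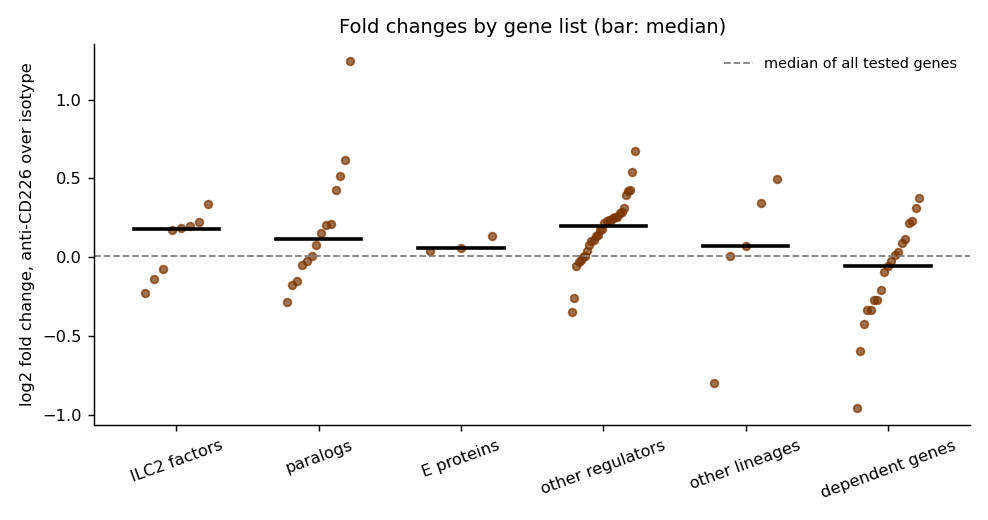
log2 fold change of anti-CD226 over isotype for the tested genes of 6 lists; points are genes, black bars are list medians and the dashed line is the median of all genes tested. The ILC2 factors and the other regulators have medians of 0.18 and 0.20, and the dependent genes lie around -0.05.

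Some markers of other cells were higher or lower in both libraries of a group, and none passed limma's adjusted p. That adjusted p was 0.98 for each marker named here that was tested, except Apoe at 0.997 (limma). The 11 macrophage genes measured of 13 listed summed to 595 and 1928 normalised reads in anti-CD226 libraries and to 304 and 292 in isotype libraries. Of the 7 tested, 6 had higher means and 4 had both anti-CD226 libraries above both isotype libraries, beside 13.8% of all genes tested. An unadjusted p below 0.05 was found for 5, beside 2.37% of all genes tested. Their median log2 fold change was 2.997, which rests in part on isotype values at or below 3 reads. Apoe and Ctss overlapped, at -0.03 ± 0.54 and 0.29 ± 0.22. Adgre1, not tested, overlapped with 7.21 and 2.20 in anti-CD226 libraries against 2.21 and 7.73. Mmp12, a macrophage elastase, had 168 and 678 in anti-CD226 libraries and 34.3 and 2.32 in isotype libraries, a log2 fold change of 4.97 ± 1.04, and ranked 7 of the 13010 genes by unadjusted p. Chil3, a lectin of lung macrophages, had 16.5 and 784 against 19.9 and 0, and its groups overlapped. Lyz2, the lysozyme of myeloid cells, had 8.24 and 51.8 against 3.32 and 0.773, and Cd68 had 55.6 and 88.2 against 35.4 and 38.6. The integrin gene Itgax had 14.4 and 46.3 against 1.11 and 0, and Itgam had 19.6 and 18.7 against 1.11 and 0. Anti-CD226 replicate 2, the highest library for 5 of the 8 factors tested, also held the highest macrophage sum. The sum was 0.014% of the signal in that library, with Mmp12 and Chil3 giving 678 and 784 of the 1928. It was 0.0043% in anti-CD226 replicate 1 and 0.0022% and 0.0021% in isotype libraries. Of the low genes in the list, Csf1r was at or below 2.62 in every library. Mpeg1 had 4.12 and 16.5 in anti-CD226 libraries against 0 and 0.

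The 3 genes measured of 6 listed for group 3 innate lymphoid cells summed to 132 and 114 in anti-CD226 libraries and to 46.6 and 68.8 in isotype libraries, so the groups did not overlap. Most of that sum was Il22, a cytokine of these cells, with 112 and 81.7 against 30.0 and 40.2, a log2 fold change of 1.44 ± 0.32 and rank 11 of the 13010 genes by unadjusted p. The 7 mast cell and basophil genes measured of 8 summed to 1015 and 1480 against 1095 and 944, of which Kit, a receptor that ILC2s also carry, made up 913 and 1350 against 950 and 768. Of the 5 tested, 3 had lower means. Cpa3, a mast cell protease, had 37.1 and 63.9 against 84.0 and 100.4, Mcpt8, a basophil protease, had 15.4 and 18.7 against 34.3 and 34.8, and Fcer1a, a chain of the IgE receptor, had 14.4 and 7.72 against 16.6 and 20.9. In these 3 genes both anti-CD226 libraries lay below both isotype libraries, at log2 fold changes of -0.90 ± 0.33, -0.98 ± 0.40 and -0.76 ± 0.55. Of the 5 tested, 3 thus had both anti-CD226 libraries below and 1, Gata2, both above, against 13% and 13.8% of all genes tested. Gata2 and Hdc went the opposite way. Hdc, too low to be tested, had 8.24 and 12.1 in anti-CD226 libraries against 1.11 and 3.86. Ms4a2, another chain of the IgE receptor, was 0 in 1 library of each group. The 7 T cell genes measured of 11 summed to 3358 and 2256 in anti-CD226 libraries and to 3194 and 3726 in isotype libraries. The 2 NK cell genes measured of 8 summed to 243 and 129 against 192 and 306. The 1 B cell gene measured of 6 had 210 and 166 against 192 and 172. The 5 lung epithelium genes measured of 6 summed to 190 and 209 against 190 and 267. Of these, Sftpc, Scgb1a1 and Krt8, too low to be tested, had 22.4, 13.1 and 13.1 in isotype replicate 2 and 0 in every other library. The single marker genes were chosen after their values were seen. The part of such cells in the values of the 10 factors was not tested. Exons of Gata3 share 77 bases with 9230102O04Rik, those of Rora 82 bases with Gm15511 and those of Gfi1 101 bases with A430072P03Rik, and these neighbours averaged 15.8, 1.57 and 7.11 normalised reads.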

How the data were processed

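The table the authors deposited holds a normalised signal (normalised read counts) for each gene in each library. Build mm10 and the tools STAR 2.7.8, Partek 10.0 and DESeq2 are named, per the submitters' processing notes. How reads were counted, on which annotation and whether by strand is not given in the sources used here, so reads of overlapping genes cannot be told apart. Of the values below 1000 reads, 73.4% to 74.9% per library were whole multiples of 1 step (tolerance 0.02 of a step). Too few values were whole reads for a count model, and depth is the total divided by that step. The floor of 3 reads was 2.32 to 3.32 normalised reads and covers counting error only. Per the labels' protocols, a low-input kit made the cDNA from 10 pg of RNA, so reads are not independent molecules.

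Genes with a mean of 10 or more were tested with limma 3.58.1 in R 4.3.3 (mean-variance trend, log2(value + 1), no replicate term, two-sided, Benjamini-Hochberg adjustment over all 13010 genes); errors of fold changes are standard errors. Fold changes on this scale understate those of low genes. The fit has 2 residual degrees of freedom. With 2 libraries a side, exact permutation cannot reach any usual threshold and was not used. The steps were tested on simulated data. The unit was checked on 117 gene columns and taken for the rest. Exon lengths (all annotated exons merged) and gene overlaps come from GENCODE M21 on GRCm38, found for 97.5% of genes, and promoters from RefSeq (GRCm38.p6). A gene of the lists is not reported here by name. The members and lists were chosen with earlier results of these data known. Named were the 10 factors, the E protein genes, from each other list of factors or dependent genes the 4 with the lowest p, and the 5 genes nearest to the most abundant factor. Alternatives covered the pseudocount, the filter, 4 scalings, the variance trend, a replicate block, the length trend, the length used and leaving out each library.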

Additional observations from a re-analysis of the deposited data

How the results depend on the processing

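Of 128 values of the 8 factors under the alternatives, 124 had the direction and the side of the threshold of the reported value. The filters, the variance trend and the replicate blocks leave the log2 fold change itself unchanged, so its direction could not differ under them. Leaving out each library gave log2 fold changes of -0.3574 to 0.07573 for Id2, -0.04526 to 0.3839 for Bcl11b and -0.03431 to 0.41 for Ets1, and each turned sign without anti-CD226 replicate 2, at 0.07573, -0.04526 and -0.03431. It gave 12 to 1633 genes past the threshold and 0 to 1 of the factors, the 1 being Rora without anti-CD226 replicate 1; only 1 residual degree of freedom then remains. Without anti-CD226 replicate 2 there were 53 genes, without isotype replicate 1 there were 12 and without isotype replicate 2 there were 17. With a replicate block 20 genes and 0 factors passed. The labels share only a number, and the replicate differences of the 2 groups correlated at -0.24 across genes, so a block with crossed pairs was added after seeing the data; it called 61 genes and 0 factors. The scalings moved the median of all genes by less than 0.1. Without division by length, 5 of the 10 factors held their place in the order, since Rora, Bcl11b and Tox, with longer exons, then stood above Nfil3 or Gfi1. The causes of the other differences were not tested. Depth limits Tcf7 and Zbtb16, which rest on 1 to 13 reads per library.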

Other observations

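Of 11 factors of other lymphoid lineages listed, 6 had a value and 5 were tested, 4 with higher and 1 with lower means in anti-CD226 libraries, and 0 passed limma's adjusted p of 0.05. Ikzf3, which encodes Aiolos, had the highest level per kilobase among them, with 2508 and 2276 normalised reads in anti-CD226 libraries and 1923 and 1844 in isotype libraries, a log2 fold change of 0.34 ± 0.16. Ahr, the aryl hydrocarbon receptor, had 357 and 528 against 472 and 362, and its groups overlapped. Foxp3, the factor of regulatory T cells, had 12.9 and 36.0 against 19.9 and 11.5, and Bcl6, the factor of follicular helper T cells and germinal centre B cells, had 7.21 and 11.02 against 12.2 and 21.6.

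Genes whose 4 values deviated from their mean most nearly as those of Id2 did were Mff, Vps28, Med8, Naa10 and Rbmxl1. Their distances from Id2 on the log2 scale lay between 0.0100 and 0.0270, beside a median of 0.426 over the 3299 other genes with a mean of 1000 or more. Mff had 1539 and 1136 normalised reads in anti-CD226 libraries and 1404 and 1529 in isotype libraries, with anti-CD226 replicate 2 the lowest as in Id2. With 4 libraries this is a description of likeness only.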
